A study of Mus musculus with 12 samples.

Results

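Genes of glycolysis, of glycogen turnover and of the response to low oxygen were examined in mouse neural stem cells and in the astrocyte-like cells made from them. The set is a list of 42 gene symbols taken by name, drawn up with earlier results of these data known. Of these, 34 had a probe detected on at least 4 arrays (detection p under 0.05) and were tested, among 10711 genes tested in all. Stem cells were taken on postnatal day 1 from the subventricular region of CD1 mouse brain and first grown as neurospheres, floating clusters of dividing cells. BMP4 samples had received a retrovirus with GFP under the Gfap promoter and were then kept for 7 days with BMP4 at 20 ng/ml, a growth factor that signals through SMAD proteins. LIF_NOG samples carried the same GFAP-GFP retrovirus and were kept for 7 days with LIF at 20 ng/ml, a cytokine that signals through STAT3, and with noggin at 250 ng/ml, which blocks BMP signalling. Both treatments used EGF at 1 ng/ml, with cytokine renewed at a lower concentration on day 3. Neurosphere samples had a control GFP retrovirus and EGF at 20 ng/ml, and their RNA was taken directly after sorting. In the protocol the sort for GFP comes before differentiation, whereas the design text places the collection of GFP-expressing cells after the culture. Virus, EGF dose, time in culture and cytokine all differ between the treated groups and Neurosphere, so their effects cannot be told apart there. BMP4 and LIF_NOG differ in cytokine and noggin, as far as the labels say.

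Each group has 4 arrays in the deposit, and 11 of these 12 were used: 4 BMP4, 4 LIF_NOG and 3 Neurosphere arrays. The column of Neurosphere 1 stands in another row order than the rest (median rank correlation 0.0104, against 0.873 to 0.930 among the others), and it enters only as an alternative, moved back by its ranks. Between 38.7% and 42.0% of probes were detected per array. Separate cultures or animals are not stated for the samples of a group, so that the p-values rest on a spread that may be technical. RNA was taken in bulk, and fewer cells of a type and less RNA per cell cannot be told apart. Signals are given as normalized log2 values, differences as log2 fold changes ± SE from limma, and a gene is called where the p-value adjusted over all genes is under 0.05. Comparisons of BMP4 and of LIF_NOG with Neurosphere share the same Neurosphere arrays.

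Glycolysis splits glucose into pyruvate, which is either turned into lactate by lactate dehydrogenase or oxidised in mitochondria, an entry that the PDH kinases shut. Glycogen is the stored form of glucose and in the brain is held mainly by astrocytes. HIF transcription factors, kept low by the prolyl hydroxylases of the Egln family when oxygen is present, raise many glycolytic genes and the angiogenic factor Vegfa when oxygen is scarce. Astrocytes are known as glycolytic cells that pass lactate to neurons.

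The labels call the treated cells astrocytes, and markers were checked first. As background for the marker counts, 24.9% of all genes were called higher and 25.5% lower in BMP4 than in Neurosphere. In LIF_NOG 13.4% were called higher, and 1395 of the 10711 genes lower. Among 10 astrocyte markers kept, 9 were called higher in BMP4 than in Neurosphere and 6 in LIF_NOG, and none was lower. Their summed linear signal was 95774 to 126173 on BMP4 arrays and 33513 to 55544 on LIF_NOG arrays, against 19416 to 20389 on Neurosphere arrays. S100b was detected on 4 of 4 BMP4 arrays, 0 of 4 LIF_NOG arrays and 0 of 3 Neurosphere arrays. Of 4 oligodendrocyte markers kept, 4 were called higher in LIF_NOG than in Neurosphere, with sums of 107 to 196 on BMP4, 2802 to 7372 on LIF_NOG and 295 to 429 on Neurosphere arrays. Of 11 proliferation genes, 10 were called lower in BMP4 and 8 in LIF_NOG than in Neurosphere, with sums of 563 to 1226 on BMP4, 2554 to 11586 on LIF_NOG and 17901 to 18343 on Neurosphere arrays. Of 5 neural stem cell markers, 2 were called lower in BMP4 and 0 in LIF_NOG, and of 6 progenitor markers of oligodendrocytes 5 and 2. Of 3 pericyte and fibroblast markers 1, Acta2, was called lower under each treatment. Acta2 makes up nearly all of their summed signal (1050 to 1223 on BMP4, 1235 to 5457 on LIF_NOG and 6386 to 9011 on Neurosphere arrays). Another, Rgs5, was called higher in BMP4 (5.869 to 6.844, beside 4.255 to 4.275 on Neurosphere arrays), and Pdgfrb was not called against Neurosphere. Of 2 ependymal markers, 1 was called higher in BMP4 and 2 in LIF_NOG, while 3 endothelial markers and 1 erythroid marker gave 0 calls against Neurosphere. None of 8 microglial markers was detected widely enough to be kept (0 markers). The part of these shifts in the results below was not tested.

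In BMP4 cells the phosphofructokinases, brain glycogen phosphorylase, aldolase C, Ldhb, Pdk4, Pfkfb3, P4ha1 and Vegfa stood well above both other groups, while Hk2 and Adm stood below them. Of the 34 genes, 23 were called between BMP4 and Neurosphere, where 50.4% of all genes tested were called. They were 20 higher (24.9% of all genes) and 3 lower in BMP4 (25.5%). Changes of at least 2-fold were called for 18 of them (25.6% of all genes), with 16 upward (13.9%) and 2 downward (11.8%). Their median difference was 0.95, beside -0.01 over all genes. For 27 of the 34 the BMP4 and Neurosphere arrays did not overlap, as for 55.0% of all genes.

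In LIF_NOG cells, 10 of the 34 genes were called against Neurosphere, where 26.4% of all genes were called. They were 8 higher (13.4% of all genes) and 2 lower (1395 of the 10711 genes), with a median of 0.17, beside -0.03 over all genes. The upward calls were Pygb, Eno2, Pfkfb3, Pdk4, Ndrg1, Pfkfb2, Pdk1 and Pfkm, and the downward calls were Adm and Aldoa. At least 2-fold changes were called for 5 (10.1% of all genes), with 4 upward (6.41%) and 1 downward (3.67%), and 12 genes had no overlap between the groups (34.2%).

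Between the treatments, 26 genes were called, where 42.7% of all genes were called. They were 21 higher (20.3% of all genes) and 5 lower in BMP4 than in LIF_NOG (22.4%). The median difference was 0.75, beside -0.00 over all genes, and 24 genes did not overlap between the groups, as for 37.3% of all genes. At least 2-fold differences were called for 17 (16.9% of all genes), with 15 upward (9.12%) and 2 downward (7.80%). Tpi1, Ldha, Ankrd37, Ddit4 and P4ha2 were called in none of these 3 comparisons (5 genes, 14.7%), as were 38.6% of all genes. Against the shared Neurosphere arrays, 7 genes were called higher under both treatments (20.6%, beside 8.92% of all genes), and Adm was called lower under both (2.94%, beside 10.4% of all genes). Opposite calls numbered 0 among the 34 and were rare over all genes too, at 0.467% higher in LIF_NOG with lower in BMP4 and 0.495% the other way, so that 0 is near the background.

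**Figure D1:**
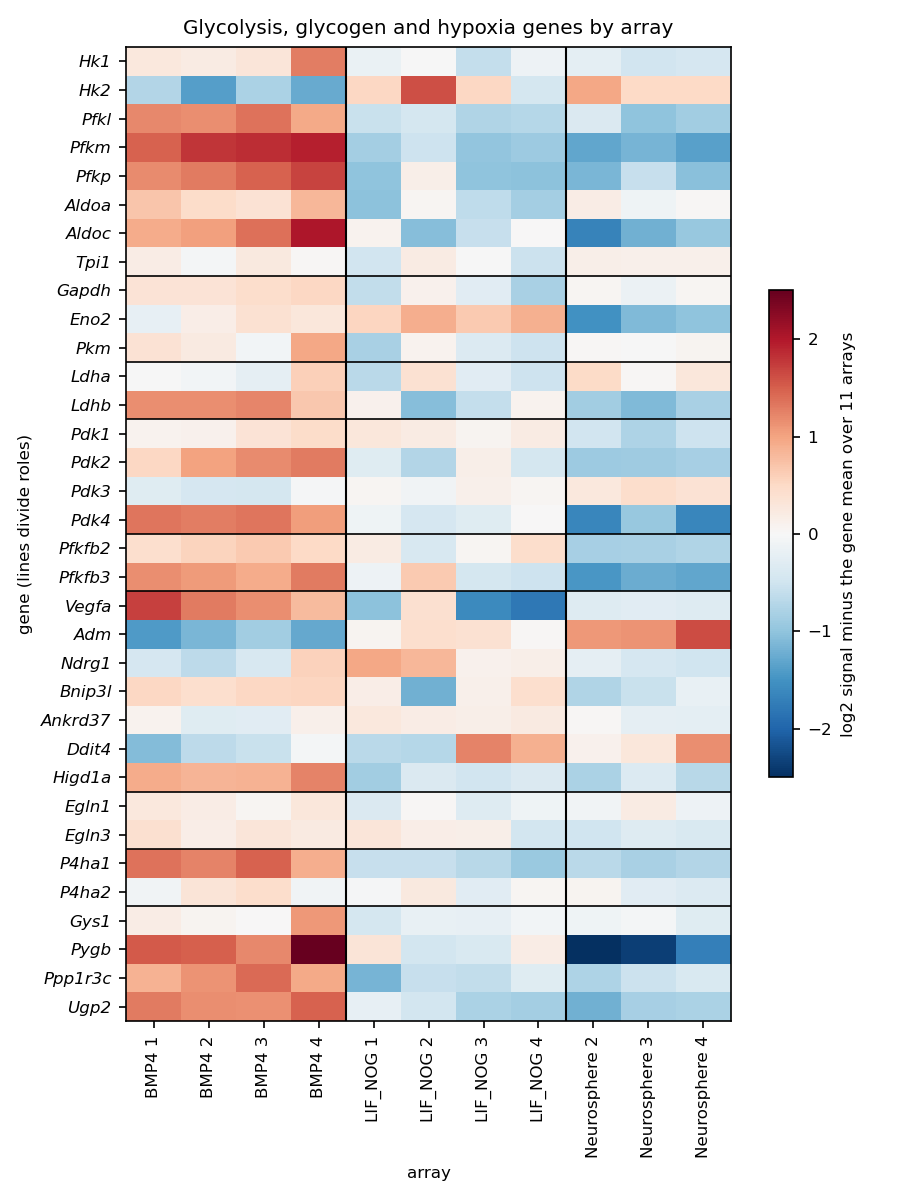
Each row is 1 of the 34 tested genes and each column 1 of 11 arrays, with colour giving the log2 signal minus the mean of that gene over the arrays. Pygb, Pfkm and Aldoc are red on the 4 BMP4 arrays and blue on the 3 Neurosphere arrays, and Hk2 and Adm run the other way.

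All 3 subunit genes of phosphofructokinase, the enzyme of the committed step of glycolysis, were called higher in BMP4 than in either other group. Pfkm, the muscle-type subunit, stood at 13.32, 13.62, 13.69 and 13.79 on the BMP4 arrays, at 11.00, 11.32, 10.86 and 10.94 on the LIF_NOG arrays, and at 10.55, 10.67 and 10.49 on the Neurosphere arrays. The 3 groups did not overlap. Pfkm was 3.04 ± 0.15 higher in BMP4 than in Neurosphere (8.21-fold, limma adjusted p = 1.84e-08) and 2.58 ± 0.14 higher than in LIF_NOG (adjusted p = 5.01e-08). The LIF_NOG increase over Neurosphere was 0.46 ± 0.15 (adjusted p = 0.0417), a call that was lost in 8 of 11 fits with 1 array left out (adjusted p 0.0542 to 0.124). Those were the fits without Neurosphere 2, 3 or 4, LIF_NOG 1, 2 or 4, or BMP4 2 or 3.

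Pfkp, the platelet-type subunit, read 8.63, 8.74, 8.93 and 9.13 on BMP4 arrays, 6.45, 7.59, 6.44 and 6.43 on LIF_NOG arrays, and 6.31, 6.87 and 6.41 on Neurosphere arrays. LIF_NOG 2 was far above the other LIF_NOG arrays for this gene, and every BMP4 array lay above every other array. The difference was 2.33 ± 0.27 in BMP4 against Neurosphere (adjusted p = 1.37e-05) and 0.20 ± 0.27 in LIF_NOG (adjusted p = 0.647). Pfkl, the liver-type subunit, gave 10.70, 10.66, 10.86 and 10.44 on BMP4 arrays, 8.94, 9.06, 8.75 and 8.77 on LIF_NOG arrays, and 9.14, 8.49 and 8.63 on Neurosphere arrays. Only the BMP4 arrays stood apart here: Pfkl was 1.91 ± 0.17 above Neurosphere (adjusted p = 1.76e-06) and 1.79 ± 0.16 above LIF_NOG (adjusted p = 2.53e-06). Second probes of Pfkm and Pfkp gave 2.98 and 2.51 for BMP4 against Neurosphere.

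The hexokinases, which phosphorylate glucose as it enters the cell, went in opposite directions under BMP4. Hk2, the inducible form known from growing and tumour cells, stood at 7.34, 6.71, 7.29 and 6.83 on BMP4 arrays, 8.60, 9.70, 8.61 and 7.64 on LIF_NOG arrays, and 9.06, 8.58 and 8.58 on Neurosphere arrays. All BMP4 arrays were below all others, with LIF_NOG 4 the lowest and LIF_NOG 2 the highest of the LIF_NOG arrays. Hk2 fell by 1.70 ± 0.36 in BMP4 against Neurosphere (adjusted p = 0.0017) and by 1.60 ± 0.34 against LIF_NOG (adjusted p = 0.00209). Hk1, the form of brain that binds mitochondria, was 0.89 ± 0.24 higher in BMP4 than in Neurosphere (adjusted p = 0.00774) and 0.73 ± 0.22 higher than in LIF_NOG (adjusted p = 0.0186). BMP4 4 was far above the other BMP4 arrays for Hk1, and without it the difference from LIF_NOG shrank to 0.47 but was still called. That call was lost without LIF_NOG 3 (adjusted p = 0.0617). Neither hexokinase was called in LIF_NOG against Neurosphere, at -0.10 for Hk2 and 0.16 for Hk1.

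Aldolase splits the 6-carbon sugar, and Aldoc encodes its brain form, in wide use as an astrocyte marker. Aldoc signals were 13.25, 13.34, 13.69 and 14.35 on BMP4 arrays, 12.40, 11.26, 11.74 and 12.34 on LIF_NOG arrays, and 10.66, 11.13 and 11.38 on Neurosphere arrays. BMP4 arrays lay above all others, while LIF_NOG and Neurosphere overlapped through LIF_NOG 2. The difference from Neurosphere was 2.60 ± 0.32 in BMP4 (6.08-fold, adjusted p = 2.06e-05). In LIF_NOG it was 0.88 ± 0.32 (adjusted p = 0.0578), and it passed without LIF_NOG 2 (1.10, adjusted p = 0.00946), without BMP4 4 (0.88, adjusted p = 0.0326) and with all 12 arrays (0.97, adjusted p = 0.0179). Aldoa, the widely expressed aldolase, was 1.20 ± 0.21 higher in BMP4 than in LIF_NOG (adjusted p = 0.000521). It was called lower in LIF_NOG than in Neurosphere (-0.66 ± 0.22, adjusted p = 0.0465), a call lost in 9 of 11 fits with 1 array left out, all but those without LIF_NOG 2 or BMP4 4 (adjusted p up to 0.155). In BMP4 against Neurosphere Aldoa was at 0.54 ± 0.22 (adjusted p = 0.0611) and passed without LIF_NOG 1 or LIF_NOG 2.

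For several enzymes of the middle and lower pathway no difference from Neurosphere passed. Tpi1 (triose phosphate isomerase), Gapdh and Pkm (pyruvate kinase) differed by -0.03, 0.44 and 0.34 in BMP4 and by -0.34, -0.38 and -0.42 in LIF_NOG, none of them called with the 11 arrays. Between the treatments Gapdh was 0.82 ± 0.17 (adjusted p = 0.00197) and Pkm 0.77 ± 0.22 (adjusted p = 0.0141) higher in BMP4, and Tpi1 did not pass at 0.30. A dimmer second probe of Tpi1 gave -0.60 in BMP4 against Neurosphere, which passed (p adjusted over all probes = 0.00299), and one of Pkm gave 0.20 between the treatments. Gapdh in BMP4 passed against Neurosphere without LIF_NOG 2 or LIF_NOG 4 (adjusted p 0.0154 and 0.0394) and with all 12 arrays (0.41, adjusted p = 0.0495).

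Eno2, the enolase known as neuron-specific enolase, was the lower-pathway gene with a called change in all 3 comparisons, and it was highest in LIF_NOG. Its signals were 7.36, 7.73, 7.93 and 7.85 on BMP4 arrays, 8.11, 8.46, 8.21 and 8.45 on LIF_NOG arrays, and 6.04, 6.46 and 6.55 on Neurosphere arrays. The 3 groups did not overlap. Eno2 rose by 1.95 ± 0.18 in LIF_NOG (3.88-fold, adjusted p = 2.46e-05) and by 1.37 ± 0.18 in BMP4 (adjusted p = 3.28e-05, and 0.89 with no background subtracted) against Neurosphere. It was 0.59 ± 0.16 lower in BMP4 than in LIF_NOG (-0.59, adjusted p = 0.0109), a call lost with all 12 arrays and the row order as a block (-0.51, adjusted p = 0.118). Of 7 neuronal markers, 2 were called higher in LIF_NOG (13.4% of all genes) and 2 in BMP4 (24.9%) than in Neurosphere. Their sums were 607 to 1139 on BMP4, 639 to 1551 on LIF_NOG and 452 to 526 on Neurosphere arrays. The part of neuronal RNA in the Eno2 signal was not tested.

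Of the lactate dehydrogenase genes, Ldhb was called higher in BMP4 and Ldha was not called. Ldhb, whose subunit is the one known from tissues that use lactate, stood at 13.28, 13.28, 13.32 and 12.79 on BMP4 arrays, 12.21, 11.05, 11.52 and 12.20 on LIF_NOG arrays, and 11.24, 11.01 and 11.29 on Neurosphere arrays. BMP4 lay above both groups, with BMP4 4 the lowest of its arrays, and LIF_NOG overlapped Neurosphere through LIF_NOG 2. Ldhb was 1.99 ± 0.26 higher in BMP4 than in Neurosphere (adjusted p = 3.63e-05) and 1.42 ± 0.24 higher than in LIF_NOG (adjusted p = 0.000435), while a dimmer second probe gave 0.53 and 0.52 (p adjusted over all probes = 0.0959 against Neurosphere). Ldha, the subunit known from tissues that make lactate, read 12.20, 12.14, 11.98 and 12.79 on BMP4 arrays, 11.53, 12.59, 11.91 and 11.69 on LIF_NOG arrays, and 12.68, 12.24 and 12.48 on Neurosphere arrays. The groups overlapped in every comparison, and Ldha was not called, at -0.19 ± 0.25 for BMP4 and -0.54 ± 0.25 for LIF_NOG against Neurosphere (adjusted p = 0.583 and 0.141).

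Paralogous genes were then set against each other within each array, as the log2 difference between the members of a pair. The level of such a difference compares 2 probes and has no meaning of its own, so that only its change between the groups can be read. For 10 pairs this difference was compared between BMP4 and LIF_NOG by an exact two-sided permutation test, in which 4 against 4 arrays cannot give a p under 0.0286. Hk2 minus Hk1 was 2.33 lower in BMP4 (-2.33), Pdk3 minus Pdk2 1.66 lower (-1.66), Pdk1 minus Pdk2 1.27 lower (-1.27) and Pfkp minus Pfkm 0.45 lower (-0.45). P4ha2 minus P4ha1 was at -1.79, with P4ha2 above background on only some arrays of either group, and this value follows the P4ha1 difference given below. These 5 pairs reached the smallest p of the exact test (0.0286), and none passed after adjustment over the 10 pairs (adjusted p = 0.0571). With that smallest p, a pair can pass the adjustment only if most of the 10 pairs reach it. The adjusted result therefore cannot decide on any single pair. Ldha minus Ldhb was at -0.89 ± 0.61 in BMP4 and 0.19 ± 1.02 in LIF_NOG (SD, n = 4 arrays each), a change of -1.08 between the groups (exact permutation p = 0.143). Pfkfb3 minus Pfkfb2 gave the same exact p with a difference of 0.77, and the remaining 3 pairs (Pfkp with Pfkl, Aldoa with Aldoc, Egln3 with Egln1) differed by 0.34, -0.52 and -0.15.

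The bifunctional enzymes that make and break fructose 2,6-bisphosphate, the activator of phosphofructokinase, were called higher under both treatments. Pfkfb3, the form with the strongest kinase side, read 9.05, 8.94, 8.82 and 9.18 on BMP4 arrays, 7.75, 8.53, 7.44 and 7.36 on LIF_NOG arrays, and 6.43, 6.64 and 6.58 on Neurosphere arrays. No group overlapped another, and the increase over Neurosphere was 2.45 ± 0.24 in BMP4 (5.48-fold, adjusted p = 3.23e-06) and 1.22 ± 0.24 in LIF_NOG (2.34-fold, adjusted p = 0.00287). Pfkfb2, a form known from heart, stood at 9.71, 9.86, 9.94 and 9.79 on BMP4 arrays, 9.50, 8.89, 9.35 and 9.73 on LIF_NOG arrays, and 8.48, 8.48 and 8.55 on Neurosphere arrays. Both treatments lay above Neurosphere and overlapped each other. The difference from Neurosphere was 1.32 ± 0.17 in BMP4 (adjusted p = 3.78e-05) and 0.86 ± 0.17 in LIF_NOG (adjusted p = 0.00355), and a dimmer second probe gave 0.29 and 0.00 without passing. Between the treatments Pfkfb2 was 0.46 ± 0.16 higher in BMP4 (adjusted p = 0.0353), which was 0.30 and not called without LIF_NOG 2. That call was lost in 5 of 11 such fits, also without LIF_NOG 3 or BMP4 2, 3 or 4.

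PDH kinases phosphorylate the pyruvate dehydrogenase complex and so hold back the entry of pyruvate into mitochondria. Pdk4, the kinase known to rise with fasting and fat oxidation, stood at 7.97, 7.91, 7.96 and 7.67 on BMP4 arrays, 6.52, 6.20, 6.33 and 6.64 on LIF_NOG arrays, and 5.00, 5.68 and 4.99 on Neurosphere arrays. The groups did not overlap, and Pdk4 was 2.66 ± 0.18 higher in BMP4 (6.30-fold, adjusted p = 2.35e-07) and 1.20 ± 0.18 higher in LIF_NOG (2.30-fold, adjusted p = 0.000742) than in Neurosphere. These differences were 1.52 and 0.54 where no background was subtracted. Pdk1, a known target of HIF, read 6.50, 6.51, 6.75 and 6.86 on BMP4 arrays, 6.70, 6.60, 6.47 and 6.60 on LIF_NOG arrays, and 5.92, 5.64 and 5.89 on Neurosphere arrays. The treatments overlapped and both lay above Neurosphere, by 0.84 ± 0.14 in BMP4 (adjusted p = 0.000224) and 0.78 ± 0.14 in LIF_NOG (adjusted p = 0.00171), with 0.06 ± 0.13 between them (adjusted p = 0.738). With no background subtracted, Pdk1 was 0.44 higher in BMP4 and 0.40 higher in LIF_NOG.

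Pdk2, the most widespread kinase of the family, was detected on 4 of 4 BMP4 arrays, 3 of 4 LIF_NOG arrays and 0 of 3 Neurosphere arrays. It was at least 2.86-fold higher in BMP4 than in Neurosphere (adjusted p = 1.22e-05; means 6.42 and 4.54) and 1.34 ± 0.20 higher than in LIF_NOG (adjusted p = 0.000167), which was 0.60 where no background was subtracted. This bound takes, for each array where a gene is not well above background, the higher of its signal and the lowest detected signal. Pdk3 went the other way, at -0.64 ± 0.13 in BMP4 against Neurosphere (adjusted p = 0.00127) and -0.33 ± 0.12 against LIF_NOG (adjusted p = 0.0464). The call against LIF_NOG was lost in 9 of 11 fits with 1 array left out, all but those without LIF_NOG 2 or BMP4 4.

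Among genes of glycogen, Pygb had the largest change of the 34 in both comparisons with Neurosphere. Pygb encodes the brain form of glycogen phosphorylase, which releases glucose units from glycogen. Its signals were 11.32, 11.28, 10.99 and 12.49 on BMP4 arrays, 10.10, 9.32, 9.41 and 9.97 on LIF_NOG arrays, and 7.26, 7.42 and 8.07 on Neurosphere arrays. The 3 groups did not overlap, and BMP4 4 was the highest array. Pygb was 3.94 ± 0.33 higher in BMP4 (15.3-fold, adjusted p = 1.23e-06) and 2.11 ± 0.33 higher in LIF_NOG (4.33-fold, adjusted p = 0.000899) than in Neurosphere. BMP4 exceeded LIF_NOG by 1.82 ± 0.31 (adjusted p = 0.00046).

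Ppp1r3c encodes PTG, a scaffold that brings a phosphatase to glycogen and favours its synthesis. The gene read 12.89, 13.14, 13.43 and 12.97 on BMP4 arrays, 10.86, 11.45, 11.40 and 11.72 on LIF_NOG arrays, and 11.26, 11.48 and 11.65 on Neurosphere arrays. LIF_NOG and Neurosphere overlapped and all BMP4 arrays lay above both. Ppp1r3c was 1.64 ± 0.20 higher in BMP4 than in Neurosphere (3.13-fold, adjusted p = 2.24e-05) and at -0.10 ± 0.20 in LIF_NOG (adjusted p = 0.762). Ugp2, which makes the UDP-glucose used for glycogen, stood at 10.08, 9.94, 9.93 and 10.26 on BMP4 arrays, 8.58, 8.33, 8.00 and 7.93 on LIF_NOG arrays, and 7.58, 7.95 and 8.00 on Neurosphere arrays. BMP4 again lay above both groups, by 2.21 ± 0.18 over Neurosphere (4.63-fold, adjusted p = 8.39e-07) and 1.84 ± 0.17 over LIF_NOG (adjusted p = 2.92e-06).

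Gys1, the glycogen synthase of muscle and brain, read 6.58, 6.46, 6.40 and 7.48 on BMP4 arrays, 5.96, 6.20, 6.18 and 6.33 on LIF_NOG arrays, and 6.28, 6.34 and 6.09 on Neurosphere arrays. BMP4 4 was far above the other BMP4 arrays, which lay just above both groups. Gys1 was at 0.49 ± 0.23 in BMP4 against Neurosphere (adjusted p = 0.0938). Against LIF_NOG it was 0.56 ± 0.21 higher (adjusted p = 0.048), a call lost in 9 of 11 fits with 1 array left out, and at 0.31 without BMP4 4. The call held without BMP4 2 or BMP4 3, and with no background subtracted Gys1 did not pass (0.33, adjusted p = 0.0779). A dimmer second probe, detected on 5 of the 11 arrays, gave 0.19 in BMP4 against LIF_NOG and 0.18 against Neurosphere, without passing.

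**Figure D2:**
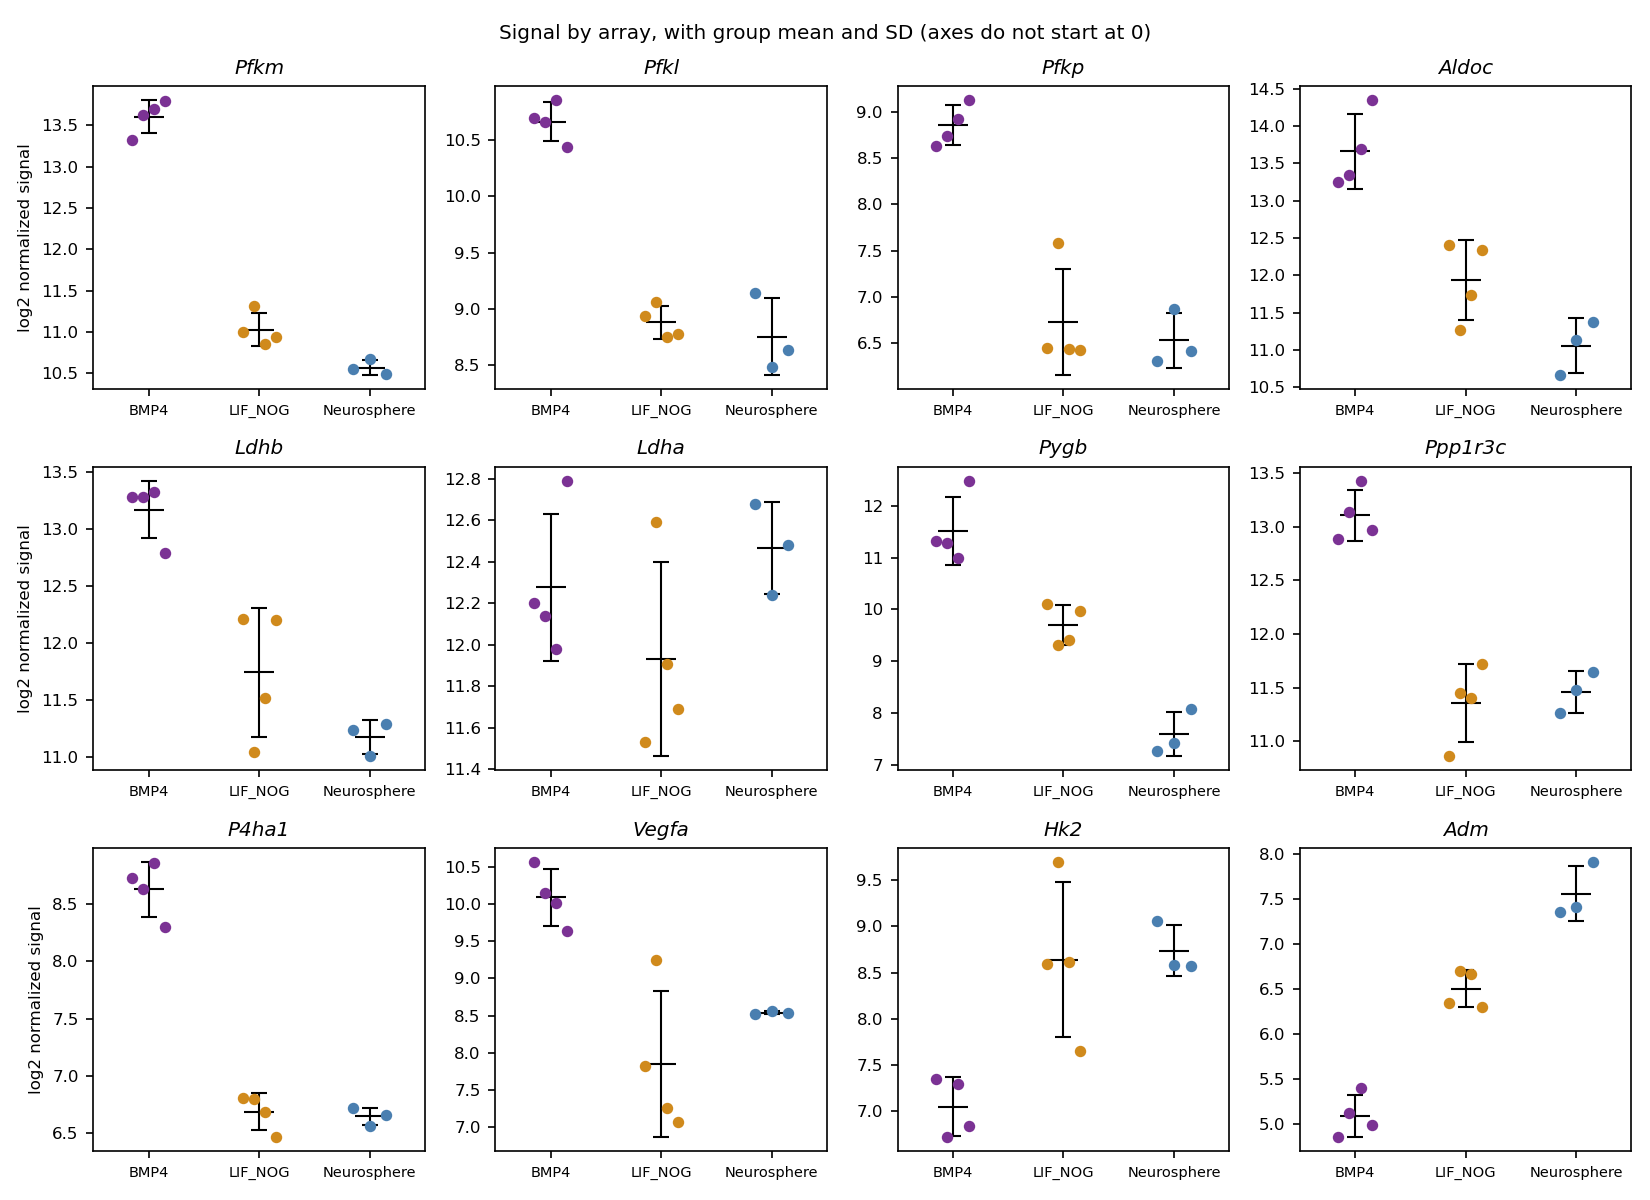
Points are the log2 normalized signals of 12 genes on each of the 4 BMP4, 4 LIF_NOG and 3 Neurosphere arrays, with bars for the group mean and SD. Pfkm, Pfkl, P4ha1 and Ppp1r3c set BMP4 apart from both other groups, Ldha overlaps in all 3, and the LIF_NOG points of Vegfa and Hk2 spread widest.

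Of 7 genes grouped here as hypoxia targets (Vegfa, Adm, Ndrg1, Bnip3l, Ankrd37, Ddit4 and Higd1a), 3 were called higher and 1 lower in BMP4 than in Neurosphere, where 24.9% and 25.5% of all genes were. In LIF_NOG 1 was called higher and 1 lower, which is near the shares over all genes. The group leaves out other tested genes known to respond to low oxygen, such as Pdk1 and P4ha1, so its counts depend on that choice. Vegfa, the growth factor of blood vessels, stood at 10.57, 10.15, 10.02 and 9.64 on BMP4 arrays, 7.82, 9.25, 7.26 and 7.06 on LIF_NOG arrays, and 8.52, 8.56 and 8.54 on Neurosphere arrays. Every BMP4 array was above every other, and 3 LIF_NOG arrays were below Neurosphere with LIF_NOG 2 above it. Vegfa was 1.55 ± 0.41 higher in BMP4 than in Neurosphere (2.93-fold, adjusted p = 0.00685) and 2.24 ± 0.38 higher than in LIF_NOG (4.74-fold, adjusted p = 0.00046). In LIF_NOG against Neurosphere it was at -0.69 ± 0.41 (adjusted p = 0.248), and without LIF_NOG 2 it was called lower (-1.16, adjusted p = 0.00189).

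Adm, which encodes the vasodilating peptide adrenomedullin, went the opposite way from Vegfa in BMP4. Its signals were 4.86, 5.13, 5.41 and 4.99 on BMP4 arrays, 6.35, 6.70, 6.66 and 6.30 on LIF_NOG arrays, and 7.36, 7.40 and 7.91 on Neurosphere arrays. The groups did not overlap, and 3 of the 4 BMP4 arrays were above background. Adm fell by 2.46 ± 0.18 in BMP4 (adjusted p = 4.23e-07) and by 1.06 ± 0.18 in LIF_NOG (adjusted p = 0.00149) against Neurosphere, at -1.33 and -0.69 where no background was subtracted.

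Ndrg1, a stress-induced gene also known from myelinating cells, was detected on 1 of 4 BMP4 arrays, 4 of 4 LIF_NOG arrays and 1 of 3 Neurosphere arrays. It read 4.87, 4.62, 4.88 and 5.86 on BMP4 arrays, 6.24, 6.11, 5.40 and 5.43 on LIF_NOG arrays, and 5.05, 4.86 and 4.78 on Neurosphere arrays. LIF_NOG lay above Neurosphere and was overlapped by BMP4 4. The LIF_NOG increase was 0.90 ± 0.29 (adjusted p = 0.0368), and the call was lost without any 1 Neurosphere array and without LIF_NOG 1 or LIF_NOG 2 (adjusted p 0.0555 to 0.109). Against LIF_NOG, Ndrg1 was lower in BMP4 (-0.74 ± 0.27, adjusted p = 0.041), lost in 8 of 11 such fits, all but those without LIF_NOG 3, LIF_NOG 4 or BMP4 4. With no background subtracted neither passed, at 0.35 and -0.29. Oligodendrocyte markers, given above, were higher in the same group, and their part in the Ndrg1 signal was not tested.

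Of the other genes grouped as hypoxia targets, Bnip3l, a receptor for the removal of mitochondria, was 1.00 ± 0.30 higher in BMP4 than in Neurosphere (adjusted p = 0.015). That call was lost without Neurosphere 2 (adjusted p = 0.0655). In LIF_NOG Bnip3l was at 0.38, and it passed without LIF_NOG 2 (0.73, adjusted p = 0.00288). Between the treatments Bnip3l was at 0.62 and passed without LIF_NOG 4 (0.81, adjusted p = 0.0392). Higd1a, a mitochondrial protein induced by low oxygen, was detected on 4 of 4 BMP4, 2 of 4 LIF_NOG and 1 of 3 Neurosphere arrays, and was 1.57 ± 0.17 higher in BMP4 than in Neurosphere (adjusted p = 7.46e-06). With most Neurosphere arrays not above background, the size of that difference is uncertain, and it was 0.66 where no background was subtracted. Ddit4, an inhibitor of mTORC1 signalling, was at -1.10 ± 0.46 in BMP4 (adjusted p = 0.0672) and passed without LIF_NOG 2 or LIF_NOG 3 (adjusted p 0.0366 and 0.0385) and with all 12 arrays (adjusted p = 0.0364). Its LIF_NOG arrays split, with 6.13 and 6.10 on LIF_NOG 1 and 2 and 8.05 and 7.70 on LIF_NOG 3 and 4. Ankrd37, an ankyrin-repeat protein, was detected on 2 of 4 BMP4, 4 of 4 LIF_NOG and 1 of 3 Neurosphere arrays. It differed by 0.06 in BMP4 and 0.36 in LIF_NOG from Neurosphere and was not called. Between the treatments it was at -0.30 and passed without BMP4 4 (adjusted p = 0.0442). With many of these signals not above background, the size of the Ankrd37 differences is uncertain.

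P4ha1 encodes the catalytic subunit of the prolyl hydroxylase of collagen, an enzyme that is itself induced by low oxygen. Its signals were 8.73, 8.63, 8.86 and 8.30 on BMP4 arrays, 6.81, 6.80, 6.68 and 6.46 on LIF_NOG arrays, and 6.72, 6.56 and 6.66 on Neurosphere arrays. LIF_NOG and Neurosphere overlapped while BMP4 stood apart. P4ha1 was 1.98 ± 0.15 higher in BMP4 than in Neurosphere (3.96-fold, adjusted p = 5.41e-07) and 1.94 ± 0.14 higher than in LIF_NOG (adjusted p = 4.69e-07). P4ha2, its paralogue, was detected on 3 of 4 BMP4, 2 of 4 LIF_NOG and 1 of 3 Neurosphere arrays and was called nowhere (0.33 in BMP4 and 0.17 in LIF_NOG).

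Of the oxygen sensors, Egln3 (PHD3) was 0.68 ± 0.17 higher in BMP4 than in Neurosphere (adjusted p = 0.00457) and at 0.44 ± 0.17 in LIF_NOG (adjusted p = 0.0733). The LIF_NOG value passed without LIF_NOG 4 (0.61, adjusted p = 0.00826) and with all 12 arrays (0.47, adjusted p = 0.0274), while a dimmer second probe gave 0.15 in BMP4. Egln1 (PHD2), the main oxygen sensor, was at 0.19 in BMP4 and -0.20 in LIF_NOG against Neurosphere. Between the treatments Egln1 was 0.39 ± 0.13 higher in BMP4 (adjusted p = 0.0311), a call lost without LIF_NOG 1 or 3 or BMP4 1, 2 or 4 (adjusted p up to 0.0892). Its dimmer probes gave 0.27 and 0.24 between the treatments without passing (p adjusted over all probes = 0.211 and 0.175).

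For 8 of the 42 listed genes no level is given. Pgk1 (1 probe), Bnip3 (1 probe), Hif1a (3 probes) and Gbe1 (2 probes) were not well above background on any array (0 of 11), and Pygm (1 probe) was detected on 3. A probe that stays dark does not show that its gene is silent. Gpi1, Pgam1 and Eno1 have no probe with that symbol in the annotation used and were not analysed here.

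The start regions of these genes were searched for ACGTG, a form of the core of the element bound by HIF, on either strand (ACGTG or CACGT). The other form, GCGTG, was not searched for or marked, so a window without a match may still hold it. Each RefSeq window (GRCm38.p6) runs from 250 bases before to 50 bases after an annotated start. Of 40 listed genes with a window, 28 held the motif (70.0%), as did 21.8% of 27025 genes. Counted by window, it was 32 of 58 (55.2%), and 19.6% of 32851 windows in all. By the change in BMP4, 13 of 19 genes called higher than in Neurosphere held it (68.4%), 2 of 3 called lower (66.7%) and 8 of 10 not called (80.0%). A match of letters is not a binding site, ACGTG holds a CpG, and base composition was not matched. The list was also drawn up by name and holds known HIF targets, so its share cannot be told apart from that choice. Shown here, 5′ to 3′ on the strand of the gene and with the motif in capitals, are the 250 bases before the start of genes that rose with BMP4 in glycogen use, glycogen synthesis and collagen hydroxylation, and of both genes that fell by more than 2-fold. They are Pygb (chr2:150786546-150786795, plus strand), Ppp1r3c (chr19:36736605-36736854, minus strand), P4ha1 (chr10:59323046-59323295, plus strand), Hk2 (chr6:82774455-82774704, minus strand) and Adm (chr7:110627407-110627656, plus strand).
Pygb: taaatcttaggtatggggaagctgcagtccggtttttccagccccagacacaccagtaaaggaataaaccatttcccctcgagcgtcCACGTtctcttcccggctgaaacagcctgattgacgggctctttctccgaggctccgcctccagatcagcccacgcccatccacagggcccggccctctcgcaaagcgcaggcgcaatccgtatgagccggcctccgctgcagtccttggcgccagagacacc
Ppp1r3c: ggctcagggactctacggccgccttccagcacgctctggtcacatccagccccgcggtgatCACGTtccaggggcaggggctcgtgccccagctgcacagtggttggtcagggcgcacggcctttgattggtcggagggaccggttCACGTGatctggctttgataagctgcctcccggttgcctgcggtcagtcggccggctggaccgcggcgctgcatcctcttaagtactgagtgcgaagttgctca
P4ha1: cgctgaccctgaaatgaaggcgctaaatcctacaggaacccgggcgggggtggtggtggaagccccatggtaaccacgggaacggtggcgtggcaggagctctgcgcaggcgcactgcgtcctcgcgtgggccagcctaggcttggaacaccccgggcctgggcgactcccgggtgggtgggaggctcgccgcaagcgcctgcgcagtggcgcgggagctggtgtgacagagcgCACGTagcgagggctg
Hk2: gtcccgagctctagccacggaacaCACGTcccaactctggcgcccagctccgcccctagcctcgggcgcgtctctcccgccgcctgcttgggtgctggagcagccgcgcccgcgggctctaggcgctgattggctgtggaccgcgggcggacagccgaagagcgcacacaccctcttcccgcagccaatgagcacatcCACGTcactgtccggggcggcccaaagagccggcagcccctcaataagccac
Adm: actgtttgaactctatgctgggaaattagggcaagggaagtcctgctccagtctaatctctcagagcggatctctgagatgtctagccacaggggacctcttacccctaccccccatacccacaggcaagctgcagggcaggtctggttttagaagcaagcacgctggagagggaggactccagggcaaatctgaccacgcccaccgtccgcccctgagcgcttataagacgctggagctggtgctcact
Pygb has 1 match, beginning 163 bases before the start. Ppp1r3c has 3, of which 2 overlap as the palindrome CACGTG, also the core of the E-box, at 104 bases before the start. P4ha1 has 1 at 16 bases, and Hk2, which fell in BMP4, has 2 at 226 and 52 bases. Adm, which fell as well, has none in its window of 300 bases (0 matches). All of the genes shown that rose hold the motif, but this is not so for every gene that rose. Pfkl, Pfkp, Ldhb, Pdk1, Pdk4 and Eno2, also called higher in BMP4 than in Neurosphere and not shown, have 0 matches. Pdk1 is among them although it is a known target of HIF.

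Other genes of these pathways were read from lists that do not hold the 34. They were chosen with earlier results of these data known. Of 7 genes for glucose and lactate transport, 4 were called higher in BMP4 than in Neurosphere (24.9% of all genes) and 1 in LIF_NOG (13.4%). Slc2a1, the glucose transporter GLUT1, was 3.17 ± 0.32 higher in BMP4 (adjusted p = 4.62e-06) and at 0.61 in LIF_NOG (adjusted p = 0.184). Slc2a3, the transporter GLUT3 known from neurons, was 1.06 ± 0.13 higher in LIF_NOG (adjusted p = 0.000149) and at -0.14 in BMP4. Slc2a13, a transporter of myo-inositol, was 2.59 ± 0.20 higher in BMP4, and Slc2a8 1.27 ± 0.24.

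Of 17 further genes of glycolysis and gluconeogenesis, 5 were called higher and 3 lower in BMP4, and 1 higher and 3 lower in LIF_NOG. Of all genes, 24.9% were called higher and 25.5% lower in BMP4 than in Neurosphere. In LIF_NOG 13.4% were called higher, and 1395 of the 10711 genes lower. The counts of this list are near those shares, which are also the background for the lists that follow. Gpd1, which turns a glycolytic intermediate into glycerol 3-phosphate, was far lower in BMP4 (-2.81 ± 0.29, adjusted p = 5.12e-06) and at 0.44 in LIF_NOG. Pcx, the pyruvate carboxylase known in brain from astrocytes, was 2.41 ± 0.23 higher in BMP4 (adjusted p = 3.2e-06). Fbp2, a fructose bisphosphatase, was 2.02 ± 0.21 higher and was detected on 4 of 4 BMP4, 2 of 4 LIF_NOG and 1 of 3 Neurosphere arrays, so that the size of this difference rests on Neurosphere signals that were mostly not above background. In LIF_NOG, Tigar (-0.88), Minpp1 (-0.79) and Adpgk (-0.63) were called lower. Pfkfb4 (0.63), named after its values were seen, was called higher.

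Among 16 other glycogen genes, 6 were called higher and 1 lower in BMP4, and 5 higher in LIF_NOG. Phka1 and Phkg1 encode subunits of phosphorylase kinase, which activates glycogen phosphorylase. Phka1 was 1.75 ± 0.22 higher in BMP4, and Phkg1 at least 2.66-fold higher, with 0 of 3 Neurosphere arrays above background (adjusted p = 0.000202). In LIF_NOG, Phkg1 was at least 1.5-fold higher (adjusted p = 0.0209) and Phkg2 0.65 ± 0.21 higher. Ppp1r3f, a relative of Ppp1r3c, was 1.79 ± 0.16 higher in BMP4 and 0.74 ± 0.16 higher in LIF_NOG. Of 6 genes of the pentose phosphate pathway, 0 were called higher in either treatment, while Rpia (-1.40 ± 0.16) and Pgls (-1.11 ± 0.22) were called lower in BMP4 and Rpia (-0.70 ± 0.16) in LIF_NOG. Of 7 genes of pyruvate entry, 3 were called higher in BMP4 (Pdp1, Pdpr and Pdha1, at 0.71, 0.56 and 0.48), and in LIF_NOG Pdhb (0.61) was called higher and Dlat (-0.62) lower.

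Of 32 further HIF regulators and targets, 14 were called higher and 2 lower in BMP4, and 7 higher and 4 lower in LIF_NOG. Hmox1, the heme oxygenase, was 3.48 ± 0.22 higher in BMP4 (adjusted p = 1.05e-07) and 0.82 ± 0.22 in LIF_NOG. Rora, a nuclear receptor, was 2.46 ± 0.21 higher in BMP4, and Ak4, a mitochondrial adenylate kinase, was 1.90 ± 0.27 higher in BMP4 and called lower in LIF_NOG (-1.06 ± 0.27). In LIF_NOG, Selenbp1 (1.89), a selenium-binding protein, and Cxcr4 (1.77), a chemokine receptor, were called higher, and Tfrc (-1.27), the transferrin receptor, lower. Pgf was called higher in LIF_NOG as well, at 5.84 to 6.29 beside 4.71 to 4.74 on Neurosphere arrays. Its Neurosphere signals lay under the lowest detected signal, so the size of that difference is uncertain. Medians of these 6 pathway lists ran from -0.28 (pentose phosphate) to 0.57 (transport) in BMP4 against Neurosphere, beside 0.95 for the 34 genes and -0.01 for all genes.

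Between the treatments, 20.3% of all genes were called higher and 22.4% lower in BMP4 than in LIF_NOG. Among transport genes, 2 were called higher and 1 lower, namely Slc2a1 (2.56), Slc2a13 (2.52) and Slc2a3 (-1.20). For the further glycolysis list it was 5 higher and 1 lower, with Gpd1 at -3.25, Pcx at 2.51 and Fbp2 at 2.16. Pyruvate entry had 3 higher and 1 lower, led by Pdhb (-0.77), Pdpr (0.75) and Dlat (0.74). Pentose phosphate genes had 0 higher and 3 lower, which were Pgls (-0.79), Rpia (-0.70) and H6pd (-0.65). The glycogen list had 7 higher and 1 lower, led by Phka1 (1.82), Nhlrc1 (1.05) and Ppp1r3f (1.04). Further HIF genes had 11 higher and 4 lower, led by Ak4 (2.96), Hmox1 (2.66) and Igfbp3 (2.51).

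**Figure D3:**
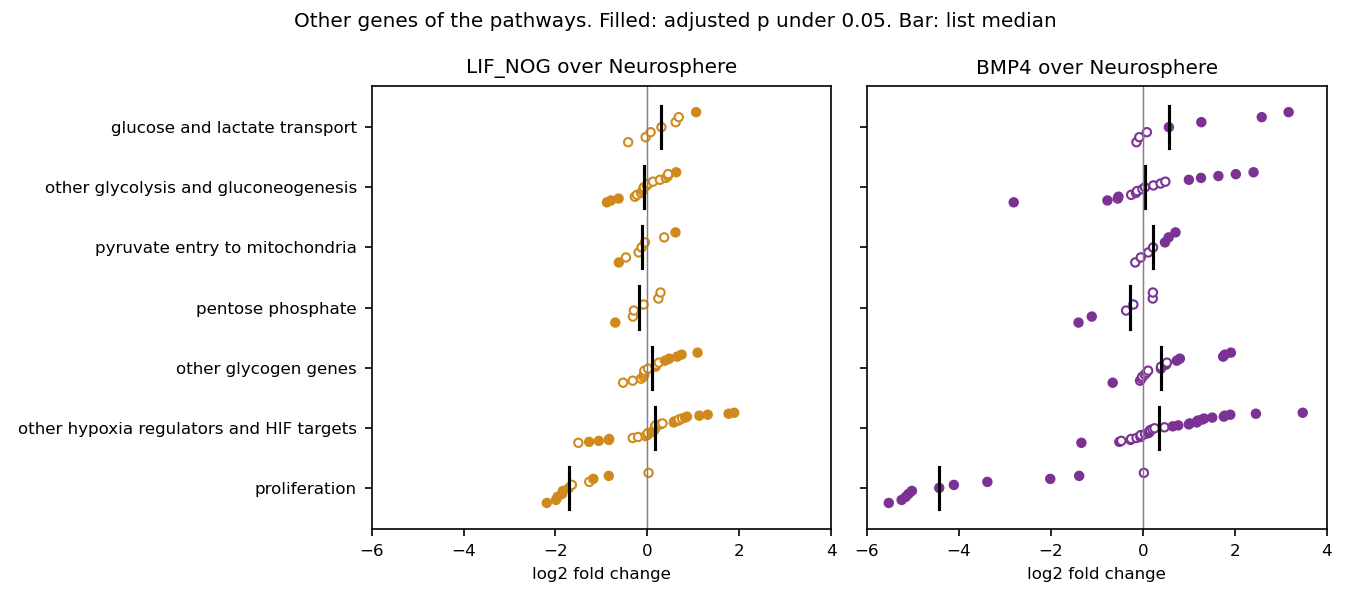
Each point is a gene of 1 list, placed by its log2 fold change over Neurosphere for LIF_NOG (left) and BMP4 (right), with filled points for an adjusted p under 0.05 and a bar at the list median. In BMP4 the transport median is at 0.57 and the proliferation median at -4.43, with 10 of 11 proliferation genes called lower.

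One LIF_NOG array stood apart for these genes. LIF_NOG 2 was the highest of its group for 17 of the 34 genes (50%), where it was highest for 33.0% of all genes, and for 10 of 11 proliferation genes. The summed proliferation signal was 11586 on LIF_NOG 2 and at most 7486 on the other LIF_NOG arrays. Of the 3 endothelial markers kept, Flt1 stood at 8.91 on LIF_NOG 2 and at 5.77, 6.16 and 5.71 on LIF_NOG 1, 3 and 4, while Kdr (5.22) and Cldn5 (5.11) were near the other LIF_NOG arrays. LIF_NOG 2 also had the lowest summed oligodendrocyte signal of its group (2802, beside 4346 to 7372). Its astrocyte sum of 47582 lay within the range of the other LIF_NOG arrays (33513 to 55544). The part of any of these in the values of that array was not tested. Without it, LIF_NOG had 10 genes called higher and 6 lower than Neurosphere. Tpi1 (-0.47), Gapdh (-0.55), Ldha (-0.75) and Vegfa (-1.16) then passed as lower, and Aldoc (1.10), Ldhb (0.79), Pdk2 (0.67) and Bnip3l (0.73) as higher. Pfkm and Ndrg1 were then not called, and between the treatments Tpi1 (0.44) and Ldha (0.56) passed as higher and Ddit4 (-1.07) as lower in BMP4. Genes called against Neurosphere in LIF_NOG numbered 2829 with all 11 arrays, 3736 without LIF_NOG 2, 1692 without Neurosphere 2 and 1751 without Neurosphere 3. With any 1 Neurosphere array left out, 6 of the 34 were called higher and 1 lower in LIF_NOG. BMP4 4 was the highest of its group for 21 of the 34 genes (61.8%) and for 31.2% of all genes.

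**Figure D4:**
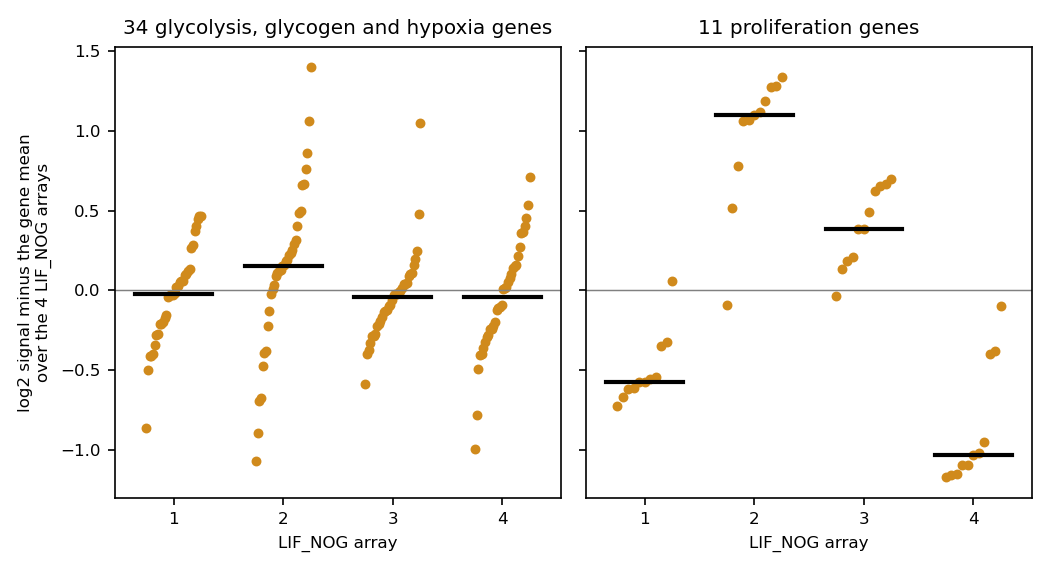
Points are genes on each of the 4 LIF_NOG arrays, as log2 signal minus the mean of that gene over the 4 arrays, for the 34 genes (left) and for 11 proliferation genes (right), with a bar at the median. LIF_NOG 2 has the highest median in both panels, and its 34 genes spread to both sides of 0.

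The row order of the authors' table also divides the arrays. Neurosphere 1, LIF_NOG 4 and BMP4 1 to 4 stand in 1 order and the other 6 arrays in another, so that BMP4 and the Neurosphere arrays used lie wholly in different sets. What the sets stand for is not given in the sources used here. With all 12 arrays and the set as a block, 20 of the 34 genes were called higher and 4 lower in BMP4 than in Neurosphere. It was 11 and 2 in LIF_NOG than in Neurosphere, and 17 and 2 in BMP4 than in LIF_NOG. Over all genes, in the same order, that fit called 4688, 3410 and 3370 genes in either direction, beside 5395, 2829 and 4575 with the 11 arrays. Only Neurosphere 1 and LIF_NOG 4 link the sets outside BMP4, so that block rests on these 2 arrays.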

How the data were processed

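RNA of 12 samples was read on Illumina mouse bead arrays, and 11 were used. Signals are intensities per probe and, per the file headers, were deposited without normalization, each beside a detection p-value. Per the submitters' processing notes BeadStudio 3 and lumi 2.15.1 were used, with no role given. Further steps of the study are not stated there. No column of per-sample values was left unmapped (0 columns).

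From these values limma 3.58.1 in R 4.3.3 (neqc: normexp background from the detection p-values, offset 16, quantile normalization) gave log2 signals, computed here from the deposited intensities. Probes detected at p under 0.05 on at least 4 arrays were kept (20044 probes, 15192 of them with 1 gene symbol). Of 46621 probes listed once, 29967 had 1 symbol, 10 had several and 16644 had none. The brightest kept probe stands for a gene, and 10 of the 34 genes have more than 1. This filter keeps a gene that is bright in 1 group only: Pdk2, Higd1a, Ndrg1, Ankrd37 and P4ha2 were detected on 6 or 7 of the 11 arrays, so counts over the tested genes are a description. Group means of all 3 groups were fitted together with lmFit and eBayes, with 8 residual degrees of freedom, two-sided and with Benjamini-Hochberg adjustment over 10711 genes at a threshold of 0.05. The number of arrays limits the precision. Neurosphere 1 was moved back, as an alternative, by matching its ranks through 5 arrays that stand in both row orders (46623 rows matched).

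The genes and lists were chosen with earlier results of these data known. Values on every array are given for up to 8 called genes with the largest change per comparison and for Aldoc, Ldha, Pgk1, Vegfa, Hif1a, Ppp1r3c, Pygb and Gys1 where measured, and, chosen after their values were seen, for Hk2 and Ldhb. From each other pathway list up to 3 called genes per comparison are named. The fit was tested on simulated data. Python 3.11.15, pandas 2.3.3, scipy 1.17.1 and matplotlib 3.10.9 did the rest. In all, 19 alternatives were run, 11 of which leave out 1 array each.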

Additional observations from a re-analysis of the deposited data

Results flagged for a closer look

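In 5 of 68 groups of 4 arrays (34 genes, BMP4 and LIF_NOG), 1 array lay apart from the other 3 by a gap that took up more of the group's range than Dixon's test allows, where chance gives about 1 in 20, or 3.4 groups. BMP4 4 accounts for 4 of these. Its log2 signal was 11.27 for Hk1 (10.20 to 10.30 on the other BMP4 arrays), 12.79 for Ldhb (13.28 to 13.32), 6.56 for Higd1a (6.18 to 6.24) and 7.483 for Gys1 (6.40 to 6.58). LIF_NOG 2 read 7.586 for Pfkp, against 6.43 to 6.45 on the other LIF_NOG arrays. The Neurosphere group, with 3 arrays, was not examined in this way.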

How the results depend on the processing

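Under all 19 alternatives, calls held for 19 of 20 genes higher (not Bnip3l) and 3 of 3 lower in BMP4 against Neurosphere. The same was so for 6 of 8 higher (not Ndrg1 or Pfkm) and 1 of 2 lower (not Aldoa) in LIF_NOG against Neurosphere, and for 16 of 21 higher (not Egln1, Gys1, Hk1, Pfkfb2 or Pkm) and 2 of 5 lower (not Eno2, Ndrg1 or Pdk3) in BMP4 against LIF_NOG. No called value changed sign. Of the 34 genes, 1 was called lower in LIF_NOG against Neurosphere under median scaling, with no background correction, with no filter on detection, and with the replicate number as a block. In BMP4 against LIF_NOG, 3 were called lower under median scaling and 2 with 12 arrays and the row order as a block. Over all genes these fits called 4174 and 3370 there in either direction, beside 4575. The causes were not tested. Leaving out 1 array at a time gave 1692 to 3736 genes called in LIF_NOG against Neurosphere, 4675 to 5741 in BMP4 against Neurosphere and 3965 to 4900 in BMP4 against LIF_NOG. Among the 34 genes these fits gave 6 to 10 higher and 1 to 6 lower in LIF_NOG against Neurosphere, 19 to 22 and 3 to 4 in BMP4 against Neurosphere, and 17 to 21 and 3 to 6 in BMP4 against LIF_NOG. Median scaling turned the share of higher calls in LIF_NOG against Neurosphere to 67.3%, beside 50.7%, and moved the median of all genes there by 0.107. With no background correction, called differences shrank by more than 1.5 times for 4 of 10, 6 of 23 and 5 of 26 genes, such as Pdk4 (1.52 in BMP4 against Neurosphere) and Higd1a (0.66). No label says that a replicate number marks a shared animal or batch. Pairing was not assumed for that reason alone. Deviations of same-numbered arrays from their group means correlated at -0.0828 to 0.259, above 0.1 in 7 of 10 pairs. As a hint of pairing, the best match in the other group had the same number in 18 of 20 cases. With the number as a block, 2671 genes were called in LIF_NOG against Neurosphere (9 of the 34 higher and 1 lower), 5255 in BMP4 against Neurosphere (20 and 4) and 4692 in BMP4 against LIF_NOG (21 and 4). Aldoc and Pdk2 in LIF_NOG against Neurosphere (adjusted p = 0.0198 and 0.0497), Ddit4 in BMP4 against Neurosphere (0.0381), and Bnip3l and Ddit4 in BMP4 against LIF_NOG (0.0464 and 0.0443) were then called. Aldoa and Ndrg1 in LIF_NOG against Neurosphere (0.0801 and 0.0767), and Pdk3, Ndrg1 and Egln1 in BMP4 against LIF_NOG (0.0591, 0.0579 and 0.0564), were then not called. For the pairs of paralogues the block was not run.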
